A study of Mus musculus with 10 samples.

Results

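Transcripts of the oxidative phosphorylation (OXPHOS) machinery were measured by bulk RNA-seq in regulatory T (Treg) cells sorted from 2 kinds of transplanted mouse tumour and from lymph nodes (LN) of tumour-free mice. The gene set was defined by symbol: genes beginning Nduf followed by a, b, c, s or v, the genes Sdha to Sdhd, genes beginning Uqcr, Cox4 to Cox8 or Atp5, and the mitochondrial genes of the mt-Nd, mt-Co, mt-Cytb and mt-Atp families. It held 110 of the 55291 genes in the count table, of which 97 are encoded in the nucleus and 13 in mitochondrial DNA. Ids ending in -ps, of which there were 14, were left out. By role, the nuclear genes comprised 7 core subunits, 32 accessory subunits and 8 assembly factors of complex I, 4 subunits of complex II, 8 of complex III, 21 of complex IV and 17 of complex V. The symbol pattern also takes in proteins that are not subunits of a finished complex, namely the 8 Ndufaf assembly factors and Cox7a2l, which joins complex III to complex IV in supercomplexes.

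OXPHOS runs in the inner mitochondrial membrane. Complex I takes electrons from NADH and complex II takes them from succinate, complex III passes them from ubiquinol to cytochrome c, complex IV hands them to oxygen, and complex V uses the resulting proton gradient to make ATP. All complexes but complex II are built from proteins of both genomes, so that nuclear and mitochondrial transcripts must meet in the same organelle. Treg cells are known to rely on mitochondrial respiration, and loss of complex III in mouse Treg cells impairs their suppressive function.

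The groups were 4 libraries of Treg cells from subcutaneous Hepa1-6 tumours taken on day 23 after injection, 2 libraries of Treg cells from subcutaneous E.G7 tumours taken on day 21, and 4 libraries of Treg cells from LN of untreated mice with no tumour. Hepa1-6 is a mouse hepatoma line and E.G7 is a mouse T lymphoma line. Every group came from Foxp3YFP-cre mice, in which the locus of Foxp3, the defining Treg transcription factor, carries a YFP and Cre reporter. Tumour Treg cells were sorted from CD4+ T cells of the infiltrating lymphocytes, so the tumour groups differ from LN in tissue as well as in the presence of a tumour, and from each other in tumour line and day. The study asked which helper T cell subset Treg cells inside tumours resemble, and used LN Treg cells, mainly of thymic origin, as its control. The sources used here give neither ages nor the number of mice behind each library. P-values therefore measure the spread between libraries, which may be technical.

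Total counts per library were 26224286 to 26665325 in Hepa1-6, 26585350 and 26663336 in E.G7, and 22665563 to 24472849 in LN. The 110 genes took 1.82 to 2.08% of the counts in Hepa1-6, 2.68 and 2.90% in E.G7, and 2.22 to 2.42% in LN. Levels are given as CPM (reads per 1000000 counted reads) after trimmed-mean (TMM) scaling. Foxp3 had 73.8 to 97.3 CPM in Hepa1-6, 47.1 and 53.3 in E.G7, and 94.1 to 119 CPM in LN, and 5 Treg-defining genes together summed to 3298 to 3439, 2518 to 2608, and 2032 to 2204 CPM in those groups. The higher sums came from Ctla4 and Tnfrsf18, the 2 of the 5 called higher in each tumour, while Foxp3 and Ikzf2 were called lower in both and Il2ra lower in E.G7. Markers of other cells moved with the tumour groups. Among all genes tested, 37% were higher and 31.1% lower in Hepa1-6 than in LN, and 32.7% higher and 27.2% lower in E.G7. Of 14 macrophage and neutrophil markers, 14 were higher in Hepa1-6 and 13 in E.G7 than in LN; their summed level was 3797 to 4095 CPM in Hepa1-6, 734 to 765 CPM in E.G7 and 25.1 to 36.7 CPM in LN, where S100a9 and Ly6g had no reads. Dendritic cell and MHC class II markers (10 of 10 higher in each tumour) had sums of 8189 to 8642, 1507 to 1560, and 148 to 168 CPM in Hepa1-6, E.G7 and LN and Batf3 at 0 in LN. Of 6 tested hepatoma markers, 6 were higher in Hepa1-6 and 4 in E.G7; the list of 11 summed to 2103 to 2282, 125 to 139, and 28.7 to 34.8 CPM in the 3 groups, with Serpina1a at 0 throughout, Ttr at 0 in E.G7, and Krt19 and Apob at 0 in LN. CD8 T and NK cell markers (9 of 10 higher in Hepa1-6, 8 in E.G7, Ncr1 at 0 in LN) summed to 1151 to 1237, 397 to 409, and 65.2 to 76.8 CPM, and stromal markers (10 of 12 higher in each, Col3a1 and Dcn at 0 in LN) to 1122 to 1211, 191 to 222, and 225 to 243 CPM. Of 8 B cell markers, 4 were higher and 3 lower in each tumour than in LN (median log2 differences 1.12 and 1.32), while their sum, most of it Ighm, was highest in LN (377 to 449, 633 to 642, and 850 to 962 CPM). Lymphoma or thymocyte markers (6 genes, Rag1 at 0 in every group; of 3 tested, 2 were higher and 1 lower in E.G7, and 1 lower in Hepa1-6) had their highest sum in E.G7, at 218 to 222 CPM, against 54.6 to 61.1 CPM in Hepa1-6 and 87.3 to 92.9 CPM in LN. The part of these cells in the OXPHOS differences given here was not tested. In bulk libraries, fewer cells of a type and less RNA per cell cannot be told apart.

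Nuclear OXPHOS transcripts were higher in Treg libraries of both tumours than in LN libraries, and higher in E.G7 than in Hepa1-6, whereas mitochondrial transcripts were lower in Hepa1-6. The 97 nuclear genes summed to 10194, 9905, 10459 and 11467 CPM in Hepa1-6, to 14013 and 14223 in E.G7, and to 8048, 8779, 7360 and 8536 CPM in LN, with no overlap between groups. Their means were 10506 ± 679 CPM (SD, n = 4), 14118 ± 149 CPM (n = 2) and 8181 ± 626 CPM (n = 4), which put Hepa1-6 at 1.28 and E.G7 at 1.73 times LN. The 13 mitochondrial genes summed to 11134, 9885, 10109 and 11303 CPM in Hepa1-6, 12586 and 14107 in E.G7, and 13486, 14086, 12823 and 12083 CPM in LN. Every Hepa1-6 library lay below every LN library on that sum (10608 ± 714 CPM against 13120 ± 862 CPM), while the E.G7 libraries fell within the LN range or just above it. The mitochondrial sum was 1.09, 0.998, 0.967 and 0.986 times the nuclear sum in Hepa1-6 and 0.898 and 0.992 times in E.G7, against 1.68, 1.60, 1.74 and 1.42 times in LN. This ratio is taken within a library and does not depend on the scaling; the tumour libraries, all at or under 1.09, did not overlap the LN libraries, all at or above 1.42.

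**Figure D1:**
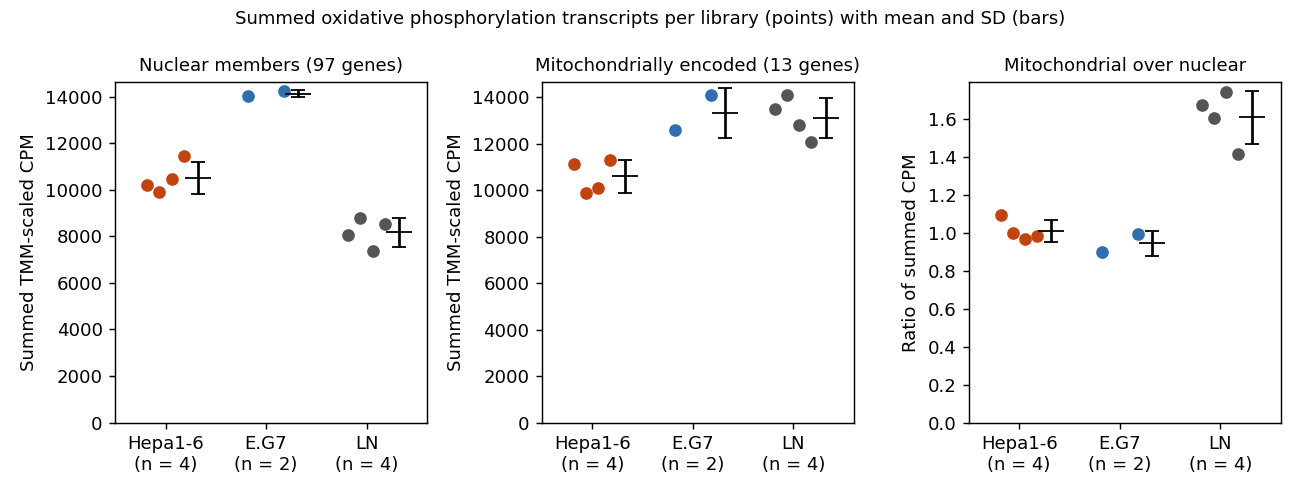
Summed TMM-scaled CPM of the 97 nuclear genes and of the 13 mitochondrial genes, and their ratio, for each library (points) with the mean and SD of each group, Hepa1-6 and E.G7 left of LN. The nuclear sum is lowest in LN (7360 to 8779 CPM) and highest in E.G7, the mitochondrial sum is lowest in Hepa1-6, and the ratio is 0.898 to 1.09 in tumour libraries against 1.42 to 1.74 in LN libraries.

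Gene by gene, 92 nuclear and all 13 mitochondrial members passed the filter on low counts among 20068 genes tested with edgeR's quasi-likelihood test, with p-values adjusted over the 20068 genes by the Benjamini-Hochberg method. In Hepa1-6 against LN, 61 nuclear members (66.3%) passed adjusted p under 0.05 as higher and 7 (7.61%) as lower, where 37% of all genes tested were higher and 31.1% lower; their median log2 difference was 0.34, beside 0.04 for all genes. Other genes with a coding length of 300 to 900 bases had medians of 0.25 to 0.31 in this comparison, above that of all genes. No Hepa1-6 library overlapped an LN library in 51 of the 61 members called higher. Among all genes tested, 7419 were called higher and 6725 of these (33.5% of all) had no overlap. No call was made for 24 members, where 68% of all genes had one in either direction. In E.G7 against LN, 78 (84.8%) were higher and 2 lower, where 32.7% of all genes were higher and 27.2% lower; the median difference was 0.88 on the log2 scale (1.84-fold), beside 0.01 for all genes, and 32 of the members called higher rose at least 2-fold. In Hepa1-6 against E.G7, 68 (73.9%) were lower and 3 higher, where 19.6% of all genes were lower and 26.1% higher, with a median difference of -0.47; 21 had no call, where 45.6% of all genes had one. The first and second comparison share the LN libraries and are therefore not independent of each other.

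The count for Hepa1-6 depended on the scaling between libraries. With upper-quartile scaling, which lowered the median of all genes in Hepa1-6 against LN to -0.13, 36 nuclear members were higher and 15 lower; with scaling to pan T cell genes, which raised that median to 0.28, 74 were higher and 1 lower. The 12 pan T cell genes were themselves lower than in LN for 7 in each tumour and higher for 2 in Hepa1-6 and 1 in E.G7, with sums of 6393 to 6541, 6329 to 6341, and 7401 to 7857 CPM in Hepa1-6, E.G7 and LN, a difference that scaling to them removes. For E.G7 against LN the same scalings gave 73 higher and 2 lower, and 85 higher and 1 lower. Within the groups, Hepa1-6 replicate 4 was the highest Hepa1-6 library for 76 of the 92 nuclear genes and LN replicate 3 the lowest LN library for 76, so that members of these sets moved together between replicates. Without Hepa1-6 replicate 4, 51 nuclear members were higher than in LN. The mitochondrial genes also moved together: E.G7 replicate 2 was above replicate 1 for all 13, and LN replicate 4 was the lowest LN library for 11. Among nuclear members at 10 CPM or more, the median coefficient of variation between libraries was 9.05% in Hepa1-6, 3.10% in E.G7 and 10.7% in LN.

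**Figure D2:**
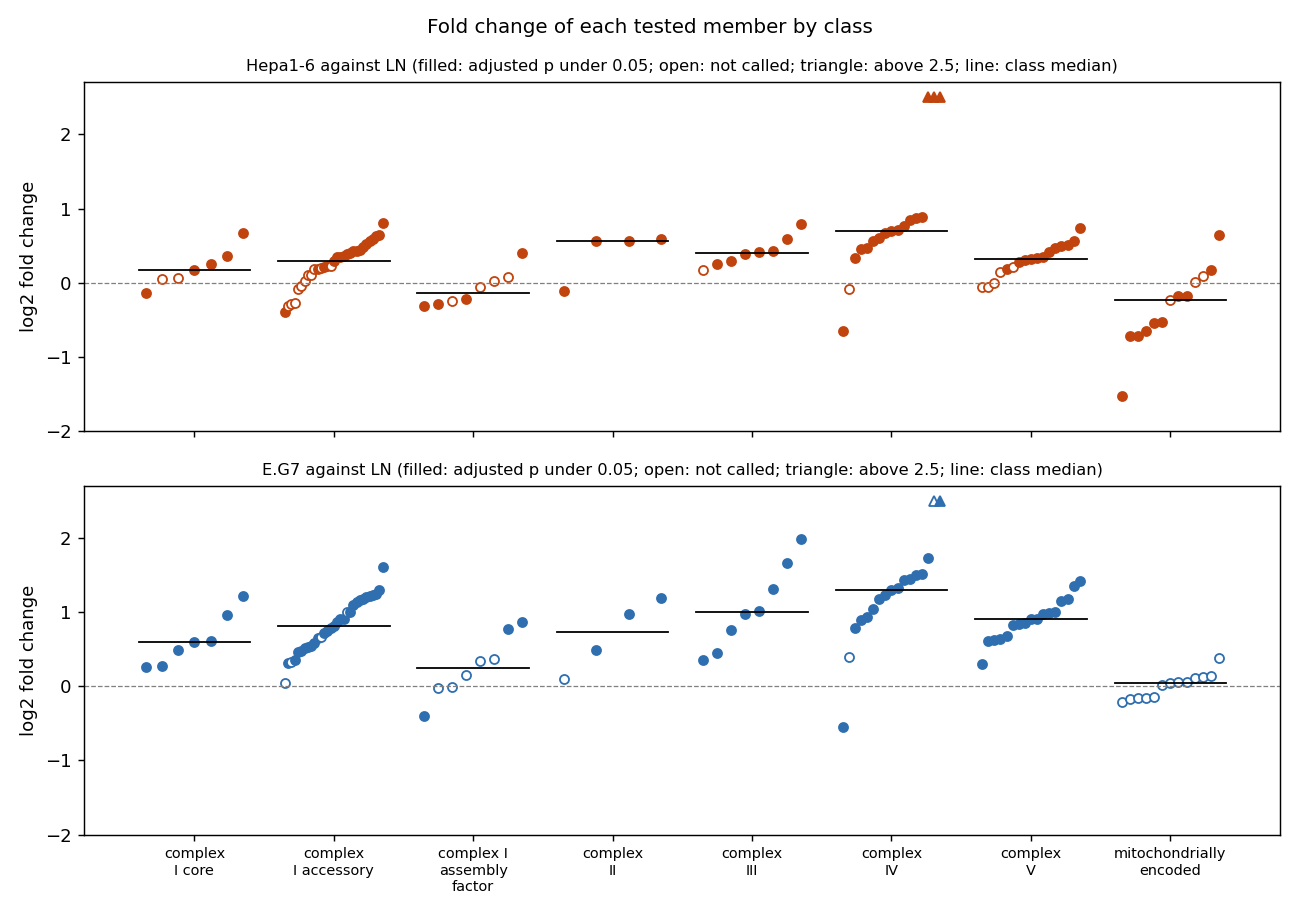
Log2 fold change of each tested OXPHOS gene by class, for Hepa1-6 against LN and for E.G7 against LN. Points are genes, filled where adjusted p is under 0.05 (edgeR); triangles mark values above the axis, and the line is the class median. Complex IV has the highest class median in both comparisons (0.70 and 1.30), and the mitochondrial genes and complex I assembly factors the lowest 2.

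The calls of the 3 comparisons were then combined. Of the 92 nuclear members, 47 were higher in both tumours than in LN and lower in Hepa1-6 than in E.G7, 10 were higher in both tumours with no call between them, and 16 were higher in E.G7 than in both other groups with no call between Hepa1-6 and LN. Mean levels followed the order E.G7, Hepa1-6, LN in 70 of the 92 and E.G7, LN, Hepa1-6 in 13. The share of all genes with each of these patterns was not computed, and the comparisons share libraries. These counts therefore describe the members alone.

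Counts by class, here and below, stand beside the shares of all genes tested. Those were 37% higher and 31.1% lower in Hepa1-6 against LN, and 32.7% and 27.2% in E.G7 against LN. Complex I, the NADH dehydrogenase, has a core that carries out electron transfer, with flavin and iron-sulphur subunits encoded in the nucleus. Of the 7 core nuclear genes, 4 were higher and 1 lower in Hepa1-6 than in LN, with a median log2 difference of 0.17; that median was -0.01 and the calls 2 higher and 2 lower under upper-quartile scaling. All 7 were higher in E.G7 than in LN (median 0.59).

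Ndufs8, a subunit holding 2 iron-sulphur clusters, had 87.2 to 93.7 CPM in Hepa1-6, 152 and 172 in E.G7, and 68.3, 76.9, 60.1 and 74.3 CPM in LN. It rose 2.32-fold in E.G7 against LN (log2 difference 1.22 ± 0.0875 SE, adjusted p = 7.47e-09) and by 0.36 on the log2 scale in Hepa1-6 (adjusted p = 0.000463), with no overlap between groups. Ndufv1, the flavin-binding subunit that takes electrons from NADH, had 129.4 to 138 CPM in Hepa1-6, 230.3 and 232 in E.G7, and 102 to 133 CPM in LN. It was higher in E.G7 (log2 0.96, adjusted p = 3.99e-08) and, with overlapping libraries, in Hepa1-6 (0.17, adjusted p = 0.0343; -0.01 under upper-quartile scaling). Ndufs1, the largest core subunit, had 126, 118, 128 and 122 CPM in Hepa1-6, 189 and 174 in E.G7, and 113, 121, 123 and 121 CPM in LN, which is 0.05 from LN in Hepa1-6 (adjusted p = 0.435) and 0.60 in E.G7 (adjusted p = 5.79e-07); it overlaps Eef1b2 on the opposite strand. Ndufs7, an iron-sulphur subunit beside the quinone site, had 77.1, 82.3, 83.3 and 81.1 CPM in Hepa1-6, 103 and 112 in E.G7, and 88.7, 93.1, 83.4 and 92.3 CPM in LN. It was called lower in Hepa1-6 against LN (-0.14, adjusted p = 0.0405) and higher in E.G7 (0.27, adjusted p = 0.00408). The Hepa1-6 difference was 0.10 under scaling to pan T cell genes. That call was not kept under 11 alternatives, among them RLE scaling, DESeq2 and leaving out single libraries. Upper-quartile scaling did not keep the E.G7 call. Ndufv2 was higher in both tumours (0.26 and 0.59), and Ndufs3 differed by 0.07 in Hepa1-6 (adjusted p = 0.349) and by 0.26 in E.G7 (adjusted p = 0.0102).

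The accessory subunits surround the core and are needed for assembly and stability. Of 31 tested, 19 were higher and 1 lower in Hepa1-6 (median log2 difference 0.29; 10 and 4 under upper-quartile scaling), and 27 were higher in E.G7 (median 0.81). Ndufb8, a membrane-arm subunit, had 94.7, 91.3, 102 and 99.97 CPM in Hepa1-6, 120.2 and 123 in E.G7, and 54.5, 59.7, 47.1 and 59.9 CPM in LN. Its groups did not overlap, with a 1.75-fold level in Hepa1-6 against LN (log2 0.81 ± 0.0748, adjusted p = 9.04e-08) and a log2 difference of 1.14 in E.G7 (adjusted p = 1.68e-08). Ndufa8 showed the same order, with 88.5 to 101 CPM in Hepa1-6, 145 and 154 in E.G7, and 54.3 to 68.3 CPM in LN (log2 differences from LN 0.64 and 1.29).

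Some accessory genes moved in E.G7 with no call in Hepa1-6. Ndufa12, an accessory subunit of the matrix arm (chr10:94198720-94221443, mm10), had 33.0, 32.4, 46.2 and 41.2 CPM in Hepa1-6, 94.5 and 103 in E.G7, and 29.1, 32.9, 25.2 and 42.8 CPM in LN. It was 3.03-fold LN in E.G7 (log2 1.60 ± 0.181, adjusted p = 7.84e-06), while Hepa1-6 overlapped LN (0.23, adjusted p = 0.211). The difference between the tumours was itself past the threshold (-1.37, adjusted p = 4.66e-05). Ndufa12-ps, left out of the set, averaged 18.7 CPM in Hepa1-6, 15.5 CPM in E.G7 and 8.46 CPM in LN, and was called higher in both tumours. Whether reads of Ndufa12 were counted there was not tested. Ndufa5 had 15.06 to 25.004 CPM in Hepa1-6, 45.3 and 41.0 in E.G7, and 16.1 to 28.0 CPM in LN (log2 differences from LN -0.27, adjusted p = 0.186, and 0.91, adjusted p = 0.00139; -1.18 between the tumours, adjusted p = 0.000252). Ndufab1, the mitochondrial acyl carrier protein, had 40.3 to 45.8 CPM in Hepa1-6, 82.1 and 88.3 in E.G7, and 35.9 to 38.0 CPM in LN, with log2 differences from LN of 0.19 (adjusted p = 0.019) and 1.20 (adjusted p = 2.43e-09). Ndufa3 was the accessory gene that fell in Hepa1-6: it had 27.4, 26.5, 31.8 and 33.4 CPM there, 40.2 and 40.6 in E.G7, and 41.4, 41.5, 32.01 and 41.9 CPM in LN (-0.40 ± 0.102, adjusted p = 0.00275, with 1 LN library inside the Hepa1-6 range). It overlaps Tfpt on the opposite strand, and whether the counting used strand is not given.

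The promoters of 5 members are shown because they are those, among members at 10 CPM or more with a single promoter entry, with the 3 largest increases in E.G7 against LN and the 2 decreases, so that genes that moved in opposite directions can be read side by side. Each runs from 150 bases before to 30 after the RefSeq start on the gene's own strand, 5′ to 3′ (RefSeq, GRCm38.p6), and capitals mark the ETS-type motif CCGGAAG or its reverse complement. The intervals are chr19:7217587-7217766 for Cox8a (minus strand), chr10:80406792-80406971 for Uqcr11 (minus), chr10:94198885-94199064 for Ndufa12 (plus), chr17:83514304-83514483 for Cox7a2l (minus) and chr9:108567407-108567586 for Ndufaf3 (minus).
Cox8a: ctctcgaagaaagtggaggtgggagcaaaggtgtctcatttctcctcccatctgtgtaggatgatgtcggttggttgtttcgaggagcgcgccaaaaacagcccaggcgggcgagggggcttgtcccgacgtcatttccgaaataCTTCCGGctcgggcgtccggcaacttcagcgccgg
Uqcr11: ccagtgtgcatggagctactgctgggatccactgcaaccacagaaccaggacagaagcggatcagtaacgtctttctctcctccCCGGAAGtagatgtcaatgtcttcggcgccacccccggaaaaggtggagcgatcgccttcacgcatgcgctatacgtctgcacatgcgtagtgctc
Ndufa12: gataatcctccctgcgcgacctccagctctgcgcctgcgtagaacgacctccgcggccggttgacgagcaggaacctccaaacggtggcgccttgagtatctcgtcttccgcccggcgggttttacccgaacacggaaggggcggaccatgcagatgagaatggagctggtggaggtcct
Cox7a2l: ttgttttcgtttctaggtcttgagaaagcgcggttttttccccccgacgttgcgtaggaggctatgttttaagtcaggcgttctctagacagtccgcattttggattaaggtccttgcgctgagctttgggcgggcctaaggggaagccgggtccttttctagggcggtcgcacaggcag
Ndufaf3: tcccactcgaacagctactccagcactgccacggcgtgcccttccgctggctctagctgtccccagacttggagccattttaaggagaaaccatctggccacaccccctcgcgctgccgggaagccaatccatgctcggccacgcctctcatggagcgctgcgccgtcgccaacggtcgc
Of 3 motifs known from respiratory gene promoters, searched on both strands in the window from 250 bases before to 50 after the start, the NRF1 motif (GCGCA, any base, then GCGC) was in 19 (25%) of the 76 nuclear members with a promoter entry and in 5.19% of all 27025 genes with one. A gene was counted if any of its entries held the motif. The 27025 genes were not limited to those expressed here, so the members and all genes are not matched for expression. The YY1 motif AAGATGGC was in 11 members (14.5%) and 3.19% of all these genes, and the ETS motif in 19 members (25%) and 9.93% of all. At least 1 of these letter strings was held by 42 members (55.3%) and 16.4% of all. Of members called higher in E.G7 against LN, 37 of 63 held 1, and of the others 5 of 13. The Ndufa12, Cox7a2l and Ndufaf3 stretches printed here hold none of these letter strings. For Ndufa12 and Cox7a2l the printed stretch lies inside the gene span counted here (chr10:94198720-94221443 and chr17:83501918-83517330). Those 2 genes as counted therefore begin further upstream, in sequence that is not printed. A match is a description of the sequence and not a bound site.

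Complex I assembly factors act on intermediates of the complex and leave it when it is finished. Of 8 tested, 1 was higher and 3 lower in Hepa1-6 than in LN (median log2 difference -0.14), a direction that flipped to a median of 0.10 with 2 higher under scaling to pan T cell genes, and 2 were higher and 1 lower in E.G7 (median 0.24). Among all genes tested 37% were higher and 31.1% lower in Hepa1-6, and 32.7% higher and 27.2% lower in E.G7, so the 3 lower in Hepa1-6 and the 2 higher in E.G7 were near the shares of all genes; the difference between assembly factors and subunits was not tested. Ndufaf4 had 26.6, 26.7, 27.6 and 26.3 CPM in Hepa1-6, 53.6 and 53.2 in E.G7, and 29.9, 31.7, 32.1 and 31.3 CPM in LN. No group overlapped another: it fell in Hepa1-6 against LN (-0.22 ± 0.0703, adjusted p = 0.0109; 0.02 under scaling to pan T cell genes), rose in E.G7 (0.77, adjusted p = 7.24e-07), and was lower in Hepa1-6 than in E.G7 (-0.995, adjusted p = 6.94e-08). Ndufaf2, a factor bound to a late intermediate, was the member higher in Hepa1-6, with 6.74 to 9.24 CPM, 10.6 and 10.7 CPM in E.G7, and 5.54 to 6.36 CPM in LN (0.40, adjusted p = 0.0199, and 0.86, adjusted p = 0.000283). Ndufaf1 and Ndufaf8 fell in Hepa1-6 (-0.28, adjusted p = 0.0423, and -0.32, adjusted p = 0.0252). Ndufaf3, whose promoter is printed above, had 17.2, 16.5, 19.6 and 21.2 CPM in Hepa1-6, 17.6 and 15.6 in E.G7, and 21.8, 23.1, 19.2 and 23.9 CPM in LN. It was lower in E.G7 without overlap (-0.40 ± 0.136, adjusted p = 0.0184) and differed by -0.24 in Hepa1-6 (adjusted p = 0.0621). The E.G7 call was lost under scaling to pan T cell genes (-0.13, adjusted p = 0.42) and without E.G7 replicate 2 (-0.31, adjusted p = 0.174), and Ndufaf3 overlaps the more abundant Impdh2 on the opposite strand.

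Complex II, succinate dehydrogenase, is also an enzyme of the tricarboxylic acid (TCA) cycle and has no mitochondrially encoded subunit. Its iron-sulphur subunit Sdhb and its membrane anchors Sdhc and Sdhd were higher in both tumours, whereas the flavoprotein subunit Sdha was lower in Hepa1-6 and had no call in E.G7. Sdhb had 189, 209, 219 and 228 CPM in Hepa1-6, 275 and 290.2 in E.G7, and 139, 153, 129 and 153 CPM in LN (log2 differences from LN 0.56, adjusted p = 2.34e-06, and 0.98, adjusted p = 3.68e-08). Sdhd had 121, 125, 135 and 139.6 CPM in Hepa1-6, 198 and 204 in E.G7, and 91.7, 93.7, 82.7 and 84.6 CPM in LN (0.56, adjusted p = 7.25e-07, and 1.19, adjusted p = 1.02e-09). Sdhc had 128, 134, 139 and 137 CPM in Hepa1-6, 123 and 128 in E.G7, and 88.0, 99.2, 77.8 and 91.7 CPM in LN (0.59 and 0.49); the tumours differed by 0.10 ± 0.0826 (adjusted p = 0.362). For these 3 genes no tumour library overlapped an LN library. Sdha had 389, 397, 406 and 405 CPM in Hepa1-6, 484 and 439 in E.G7, and 439, 438, 409 and 443 CPM in LN, which is -0.11 ± 0.046 in Hepa1-6 (adjusted p = 0.0387) and 0.09 ± 0.0561 in E.G7 (adjusted p = 0.159). Its direction in Hepa1-6 flipped to 0.13 (adjusted p = 0.0172) under scaling to pan T cell genes. The lower call was not kept under 11 alternatives, among them RLE scaling, DESeq2 and leaving out single libraries.

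Complex III, the cytochrome bc1 complex, showed the largest E.G7 increase among members at 10 CPM or more. Of its 8 genes, 7 were higher in Hepa1-6 than in LN (median log2 difference 0.40; 2 under upper-quartile scaling) and 8 in E.G7 (median 0.99). Uqcrq, a small subunit of the complex (chr11:53427922-53430831), had 64.9, 63.1, 68.4 and 73.5 CPM in Hepa1-6, 202 and 203 in E.G7, and 45.1, 57.1, 41.6 and 61.7 CPM in LN. It rose 3.94-fold in E.G7 against LN (log2 1.98 ± 0.123, adjusted p = 5.06e-09) and, with no overlap, by 0.39 in Hepa1-6 (adjusted p = 0.00467; 0.21 and no call under upper-quartile scaling), and the tumours differed by -1.59 (adjusted p = 9.85e-08). Uqcr11, another small subunit, had 37.9, 40.5, 41.5 and 50.3 CPM in Hepa1-6, 99.2 and 101 in E.G7, and 29.9, 34.5, 23.7 and 38.3 CPM in LN. Hepa1-6 and LN overlapped slightly (0.43 ± 0.127, adjusted p = 0.00807), and E.G7 was 3.17-fold above LN (1.66 ± 0.146, adjusted p = 2.26e-07).

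The Rieske protein and the core proteins of complex III were also higher in both tumours. Uqcrfs1, the Rieske iron-sulphur protein, had 169.6, 165, 158 and 194 CPM in Hepa1-6, 196 and 192 in E.G7, and 94.98, 107, 93.9 and 100.5 CPM in LN. Both tumour groups lay above LN, by 1.73-fold in Hepa1-6 (0.79, adjusted p = 2.52e-08) and by 0.97 on the log2 scale in E.G7 (adjusted p = 2.82e-08), and their own difference was -0.17 ± 0.0794 (adjusted p = 0.0885). Uqcrc1, a core structural protein, had 346 to 383 CPM in Hepa1-6, 389 and 383 in E.G7, and 281 to 324 CPM in LN (0.29 and 0.35). Uqcr10, Uqcrb and Uqcrc2 were higher in both tumours, by 0.41, 0.59 and 0.26 in Hepa1-6 and 1.31, 1.02 and 0.75 in E.G7, and Uqcrh differed by 0.17 in Hepa1-6 (adjusted p = 0.0574) and 0.44 in E.G7 (adjusted p = 0.000455).

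Complex IV, cytochrome c oxidase, had the largest class medians. Of 17 nuclear genes tested, 15 were higher and 1 lower in Hepa1-6 (median log2 difference 0.70; 14 and 1 under upper-quartile scaling), and 14 were higher and 1 lower in E.G7 (median 1.30). Summed over the class, the level was 1.41 times LN in Hepa1-6 and 2.04 times LN in E.G7. Cox5a, a subunit on the matrix side of the complex, had 108, 93.9, 97.1 and 116 CPM in Hepa1-6, 138 and 143 in E.G7, and 54.6, 61.9, 52.2 and 55.5 CPM in LN. It was the member at 10 CPM or more with the largest Hepa1-6 increase, 1.85-fold (0.89 ± 0.0748, adjusted p = 2.92e-08), and rose by 1.32 in E.G7 (adjusted p = 2.63e-09). Cox8a (chr19:7215153-7217616), a small membrane-spanning subunit, had 205, 187, 215 and 263 CPM in Hepa1-6, 391 and 397 in E.G7, and 119, 132, 93.6 and 132 CPM in LN, without overlap (1.82-fold in Hepa1-6, adjusted p = 5.04e-05; 3.31-fold in E.G7, log2 1.73 ± 0.14, adjusted p = 6.42e-07). Per length, Cox8a had the highest nuclear level of the set in E.G7, at 1951 TPM (transcripts per 1000000, from counts and exon lengths), against 660 TPM in LN. Atp5b was the highest in Hepa1-6, at 1009 TPM. The annotated exon lengths behind this order are 619 bases for Cox8a and 4237 for Atp5b. By reads, Atp5b was the higher of these 2 in every group. Cox6c had 79.2 to 105 CPM in Hepa1-6, 151 and 151 in E.G7, and 48.0 to 56.6 CPM in LN (0.71 and 1.499), and it overlaps Vps13b on the opposite strand. Cox5b, Cox6b1, Cox7b and Cox7c were higher in both tumours, by 0.76, 0.56, 0.47 and 0.33 in Hepa1-6 and by 1.18, 1.04, 0.93 and 0.79 in E.G7.

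Cox7a2l (chr17:83501918-83517330) was the single complex IV gene that fell. It had 162, 146, 149.98 and 178 CPM in Hepa1-6, 167 and 174 in E.G7, and 249.3, 279.9, 228 and 244 CPM in LN. The tumour libraries did not overlap LN, and the log2 difference was -0.65 ± 0.0705 in Hepa1-6 (adjusted p = 5.75e-07) and -0.55 ± 0.0879 in E.G7 (adjusted p = 5.48e-05), with -0.10 ± 0.0859 between the tumours (adjusted p = 0.365). Both calls against LN held under every alternative tried for them. Its relative Cox7a2, the widely expressed subunit of complex IV, went the other way, with 73.9, 68.5, 83.6 and 94.0 CPM in Hepa1-6, 125 and 122 in E.G7, and 49.8, 54.3, 40.2 and 56.1 CPM in LN (0.67, adjusted p = 7.55e-05, and 1.30, adjusted p = 6.73e-07). Per length, Cox7a2l averaged 302 TPM and Cox7a2 237 TPM in Hepa1-6, 354 and 401 TPM in E.G7, and 581 and 182 TPM in LN.

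Several complex IV subunits exist as alternative isoforms with tissue-restricted expression. Cox4i1, the general isoform of subunit 4, had 386, 356, 367 and 418 CPM in Hepa1-6, 448 and 488 in E.G7, and 241, 282, 223 and 260.4 CPM in LN (0.60 and 0.90). Its counterpart Cox4i2, known from lung and from hypoxic cells, had 3.15, 2.28, 2.68 and 2.97 CPM in Hepa1-6, 0.483 and 0.442 in E.G7, and 0.277, 0.116, 0.161 and 0.117 CPM in LN. The groups did not overlap. From 269 summed reads in Hepa1-6, 25 in E.G7 and 17 in LN, the ratio to LN was 16.6 in Hepa1-6 (95% counting interval 10.2 to 28.9, adjusted p = 3.49e-08) and 2.77 in E.G7 (1.44 to 5.47, adjusted p = 0.0112, and 0.0603 without E.G7 replicate 1), and the Hepa1-6 to E.G7 ratio was 5.99 (3.97 to 9.43, adjusted p = 4.99e-05). Intervals of this kind cover counting error alone. Per length, Cox4i2 stood at 9.84 TPM in Hepa1-6, beside 690 TPM of Cox4i1.

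Of the subunit 6A isoforms, both were highest in E.G7. Cox6a1, the general isoform, had 204, 208, 219 and 236 CPM in Hepa1-6, 316 and 331 in E.G7, and 121, 129, 97.2 and 135 CPM in LN (0.85, adjusted p = 5.25e-07, and 1.42, adjusted p = 1.41e-08). Cox6a2, the heart and skeletal muscle isoform, had 1.06, 1.20, 1.53 and 2.06 CPM in Hepa1-6, 7.80 and 9.16 in E.G7, and 0.0395, 0, 0.0402 and 0.0777 CPM in LN. It summed to 142 reads in Hepa1-6, 459 in E.G7 and 4 in LN, so that the E.G7 to LN ratio was 216 with a counting interval of 83.8 to 797 (adjusted p = 5.61e-10) and the Hepa1-6 to LN ratio 37.2 (14.2 to 139, adjusted p = 8.88e-08). Muscle and fat markers (8 genes) summed to 0.372 to 1.03 CPM in Hepa1-6, 2.12 and 2.17 in E.G7, and 0.311 to 1.97 CPM in LN. Of the 3 tested, 1 (Actn3) was lower in Hepa1-6 than in E.G7, and 0 were called against LN. The part of such cells in the Cox6a2 level was not tested. Cox6a2 overlaps Itgad, a myeloid integrin gene with a mean of 10.7 reads per library beside 60.5 for Cox6a2, on the opposite strand.

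Ndufa4, a complex IV subunit despite its complex I name, had 105, 99.6, 117 and 134 CPM in Hepa1-6, 226 and 246 in E.G7, and 85.4, 99.9, 68.7 and 77.7 CPM in LN (0.46, adjusted p = 0.0031, and 1.51, adjusted p = 5.84e-07). The gene Ndufa4l2, a target of hypoxia-inducible factor in other cells, had 0.368, 0.331, 1.16 and 0.495 CPM in Hepa1-6, 0.0743 and 0.0368 in E.G7, and no reads in any LN library. From 57, 3 and 0 summed reads, and with a floor of 3 reads over the LN group, it was at least 19.9-fold higher in Hepa1-6 than in LN (adjusted p = 0.000115) and 10.6 times E.G7 (counting interval 3.44 to 52.8, adjusted p = 0.0135). It overlaps the far more abundant Shmt2 on the opposite strand. Cox6b2, the testis isoform of Cox6b1, stayed at 0.662 to 1.33 CPM throughout with no call. Among the members under the filter, Cox7a1, the heart and muscle isoform, summed to 26, 12 and 14 reads in Hepa1-6, E.G7 and LN, Cox8b to 0, 2 and 10 reads, and Ndufa11b to 4, 4 and 2 reads. Cox7b2 and Cox8c had no reads in any library, which allows up to 0.0309 CPM in Hepa1-6, 0.0555 CPM in E.G7 and 0.0295 CPM in LN.

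**Figure D3:**
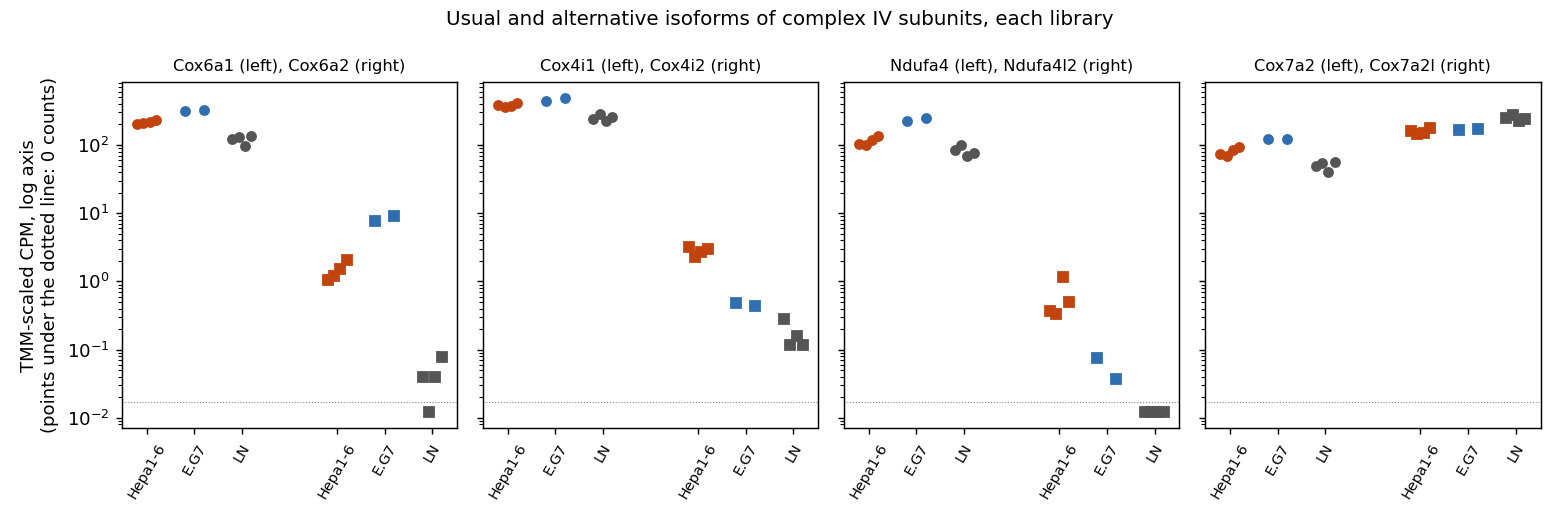
TMM-scaled CPM per library (log axis; libraries with no reads at the bottom) of 4 isoform pairs: Cox6a1 and Cox6a2, Cox4i1 and Cox4i2, Ndufa4 and Ndufa4l2, and Cox7a2 and Cox7a2l, with Hepa1-6 and E.G7 left of LN. CPM are comparable within a gene. Cox4i2 and Ndufa4l2 are highest in Hepa1-6 (2.28 to 3.15 and 0.331 to 1.16 CPM), Cox6a2 in E.G7 (7.80 and 9.16 CPM) and Cox7a2l in LN (228 to 279.9 CPM).

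Complex V, the ATP synthase, consists of a catalytic F1 head and a proton-conducting Fo part. Of 17 genes, 12 were higher in Hepa1-6 than in LN (median log2 difference 0.32; 5 higher and 2 lower under upper-quartile scaling) and 17 in E.G7 (median 0.91). Atp5b, the catalytic beta subunit and the nuclear member with the most reads, had 1526, 1440.01, 1524 and 1612 CPM in Hepa1-6, 1602 and 1603 in E.G7, and 1005, 1090.2, 983 and 1056 CPM in LN. Both tumours lay above LN by similar amounts (0.56, adjusted p = 1.74e-08, and 0.63, adjusted p = 5.93e-08), and their difference was -0.07 ± 0.0552 (adjusted p = 0.328). Atp5c1, the gamma subunit of the rotor, differed between the tumours, with 289, 288, 297 and 331 CPM in Hepa1-6, 506 and 526 in E.G7, and 260.1, 299.8, 244 and 253 CPM in LN (-0.78 between the tumours, adjusted p = 5.51e-07). Atp5d, the delta subunit of F1, had 255 to 266 CPM in Hepa1-6, 319 and 344 in E.G7, and 176 to 192 CPM in LN (0.50 and 0.84).

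The 3 genes Atp5g1, Atp5g2 and Atp5g3 encode the same mature subunit c of the proton-conducting ring and differ in their targeting peptides. Atp5g1 had 104, 99.99, 108 and 123 CPM in Hepa1-6, 227 and 235 in E.G7, and 84.3, 91.3, 73.7 and 96.8 CPM in LN, 2.67-fold in E.G7 against LN (1.42, adjusted p = 5.06e-09) and 0.33 in Hepa1-6 (adjusted p = 0.00235). Atp5g2 had 64.3, 61.0, 61.0 and 74.9 CPM in Hepa1-6, 106 and 111 in E.G7, and 69.1, 78.5, 59.2 and 64.4 CPM in LN (-0.06 ± 0.0876, adjusted p = 0.596, and 0.68, adjusted p = 3.67e-05). Atp5g3 was 99.1 to 108 CPM in Hepa1-6, 133 and 152 in E.G7, and 67.3 to 77.5 CPM in LN (0.51 and 1.00). By TPM, Atp5g3 was the highest of the 3 in the tumours, at 131 TPM in Hepa1-6 and 201 TPM in E.G7, where Atp5g2 stood at 199 TPM. In LN the highest was Atp5g2, at 139 TPM. That order rests on annotated exon lengths of 4912 bases for Atp5g1, 1675 for Atp5g2 and 2181 for Atp5g3. By reads, Atp5g1 was the highest of the 3 in every group, so the order of the transcripts is not settled. Atp5h did not move in Hepa1-6 beyond its error (0.00 ± 0.0769) and rose by 0.30 in E.G7 (adjusted p = 0.0116).

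The 13 mitochondrially encoded genes supply subunits of complexes I, III, IV and V, and are transcribed as long precursors from both strands of the circular genome. In Hepa1-6 against LN, 2 were higher and 8 lower (median log2 difference -0.23), where 37% of all genes tested were higher and 31.1% lower. The groups did not overlap in 6 of the 8. Among all genes tested, 6237 were called lower and 5408 of these (26.9% of all) had no overlap. Upper-quartile scaling gave 1 higher and 8 lower, and scaling to pan T cell genes moved the median to 0.01 with 2 higher and 5 lower. In E.G7 against LN edgeR called 0 in either direction (median 0.05), where 59.9% of all genes tested had a call. Only 1, mt-Co2, had an unadjusted p under 0.05. DESeq2 called 3 higher and limma-voom 1. In Hepa1-6 against E.G7, 6 of the 13 were lower (median -0.31), where 19.6% of all genes were lower.

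The 4 genes from mt-Nd4 to mt-Cytb along the genome were each lower in Hepa1-6 than in LN, with no overlap between the groups. mt-Cytb, the catalytic core of complex III (chrM:14145-15288), had 2365, 2096, 2206 and 2367 CPM in Hepa1-6, 3867 and 4197 in E.G7, and 3856, 3838, 3664 and 3546 CPM in LN. Every Hepa1-6 library lay below every other, by -0.72 ± 0.0479 against LN (adjusted p = 1.5e-09) and -0.84 ± 0.0569 against E.G7 (adjusted p = 7.11e-09), while E.G7 and LN differed by 0.11 (adjusted p = 0.103). mt-Nd5, a proton-pumping subunit of complex I, had 881, 828, 769 and 844 CPM in Hepa1-6, 1278 and 1421 in E.G7, and 1351, 1412, 1309 and 1145 CPM in LN (-0.65 against LN, adjusted p = 2.04e-07). mt-Nd4, its neighbour, had 674, 637, 633 and 651 CPM in Hepa1-6, 919 and 1043 in E.G7, and 991, 999, 923 and 852 CPM in LN (-0.54, adjusted p = 3.64e-07). mt-Nd6, the light-strand gene, fell by -0.53 (adjusted p = 1.68e-05), at 65.3 to 74.9 CPM in Hepa1-6, 91.1 and 117 in E.G7, and 93.6 to 107 CPM in LN; it overlaps mt-Nd5 on the opposite strand.

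Genes on the other side of mt-Nd4 had mixed directions. mt-Nd1, in the membrane arm of complex I (chrM:2751-3707), had 2875, 2454, 2512 and 2714 CPM in Hepa1-6, 2446 and 2704 in E.G7, and 2461, 2475, 2249 and 2172 CPM in LN. It was called higher in Hepa1-6 (0.17, adjusted p = 0.0153) with overlapping libraries, and its sign turned to -0.01 under upper-quartile scaling. mt-Nd2 and mt-Co1 were lower in Hepa1-6 by -0.18 each (adjusted p = 0.0304 and 0.0478), and both signs turned to 0.06 under scaling to pan T cell genes. The call was not kept under 8 alternatives for mt-Nd2 and 12 for mt-Co1, RLE scaling and DESeq2 among them. mt-Co2 was higher in Hepa1-6 (0.65, adjusted p = 0.000638), at 31.0, 23.0, 25.7 and 26.9 CPM, with 18.8 and 25.5 CPM in E.G7 and 19.0, 19.0, 17.1 and 13.1 CPM in LN. mt-Nd3 and mt-Nd4l were lower in Hepa1-6 than in LN (-1.52 ± 0.285, adjusted p = 0.000197, and -0.72, adjusted p = 0.00586), and mt-Atp6, mt-Atp8 and mt-Co3 differed by -0.23, 0.01 and 0.09 with no call. The mitochondrial ribosomal RNAs mt-Rnr1 and mt-Rnr2, transcribed ahead of mt-Nd1, differed by -0.39 (adjusted p = 0.122) and -0.10 (adjusted p = 0.598) in Hepa1-6 against LN.

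Several of these values are uncertain because of a nuclear copy. A stretch of chromosome 1 (chr1:24611535-24616197) holds annotated copies that match mt-Nd4l, mt-Atp6, mt-Co3, mt-Nd3 and mt-Co2 at 100% identity over 98.3 to 99.9% of each gene. It also holds a copy of 63.6% of mt-Nd4 at 100% and a copy of 31.3% of mt-Co1 at 99.8%. Reads can be split between the copies or left uncounted in the authors' counting. The 5 genes with whole copies averaged 64.1 (mt-Nd3) to 2175 (mt-Atp6) reads per library, beside 100896 for mt-Co1. Their copies had at most 2958 reads in a library. Fold changes of these 5 may therefore rest on a small part of their transcripts, which was not tested. The copy of mt-Nd3, Gm28438, had 60 to 106 reads in Hepa1-6, 104 and 123 in E.G7, and 27 to 36 in LN, against 15 to 40, 73 and 97, and 69 to 123 reads of mt-Nd3 itself. The low mt-Nd3 in Hepa1-6 thus stood beside a higher count of its copy. No annotated copy there matched the other 6 genes. Of these, mt-Atp8, which overlaps mt-Atp6, is not in the sum that follows. In the 5 others, namely mt-Nd1, mt-Nd2, mt-Nd5, mt-Nd6 and mt-Cytb, the summed level was 6037 ± 362 CPM in Hepa1-6, 8359 ± 569 CPM in E.G7 and 7742 ± 425 CPM in LN, 0.780 times LN in Hepa1-6 and 1.08 times in E.G7. Of these 5, 1 was higher and 4 lower in Hepa1-6 than in LN. Their sum was 0.546 to 0.630 times the nuclear sum in tumour libraries and 0.845 to 1.03 times in LN libraries.

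**Figure D4:**
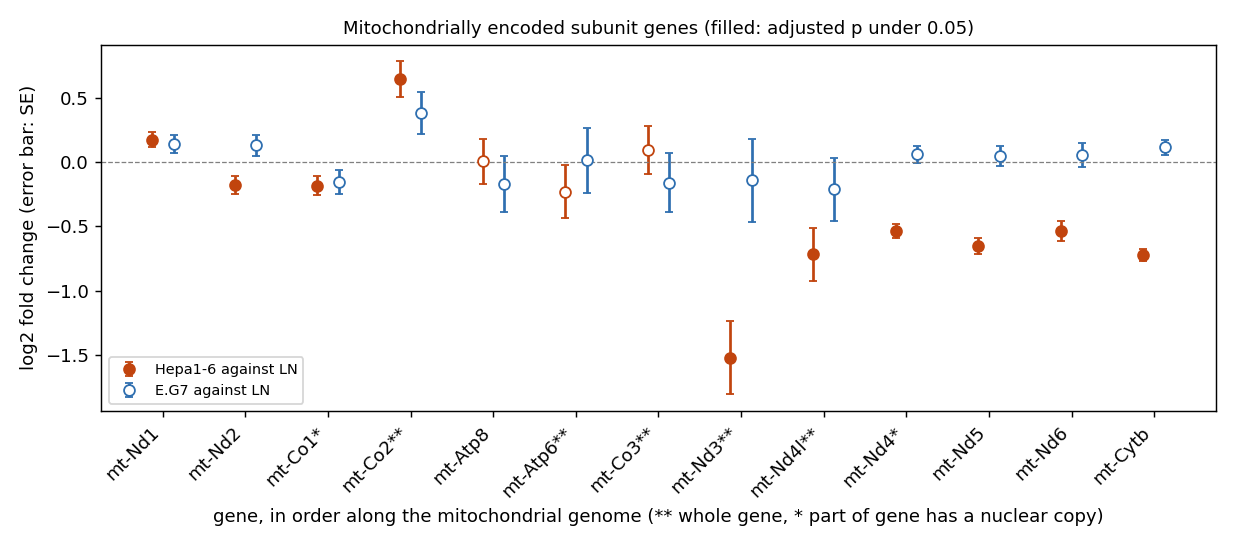
Log2 fold change ± SE of the 13 mitochondrial genes in their order along the mitochondrial genome, for Hepa1-6 against LN and E.G7 against LN; asterisks mark genes with a nuclear copy of all or part of their sequence. In Hepa1-6, mt-Nd4, mt-Nd5, mt-Nd6 and mt-Cytb lie at -0.54, -0.65, -0.53 and -0.72, while in E.G7 the same 4 genes lie between 0.05 and 0.11.

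Coding length was compared because many OXPHOS subunits are very small proteins. Among the 87 tested nuclear members with a coding length (94.6%), the log2 difference fell with length in E.G7 against LN (Spearman's rho -0.43 across genes) and less in Hepa1-6 against LN (rho -0.16); among 14206 other genes rho was -0.12 and -0.06. These are descriptions across genes measured in the same libraries. In E.G7 the median difference of members up to 300 bases (22 genes) was 1.16, beside 0.15 for other genes of that length, and for members of 900 to 1500 bases (11 genes) it was 0.49, beside 0.17. In Hepa1-6 the members up to 300 bases stood at 0.42, beside 0.05 for other genes, and those of 600 to 900 bases (8 genes) at 0.28, beside 0.29. Between these, members of 300 to 450 bases (25 genes) stood at 0.35, beside 0.25, and those of 450 to 600 bases (17 genes) at 0.44, beside 0.31. In these 2 ranges 15 of 25 and 12 of 17 members were called higher, beside 45.4% and 51.2% of the other genes.

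**Figure D5:**
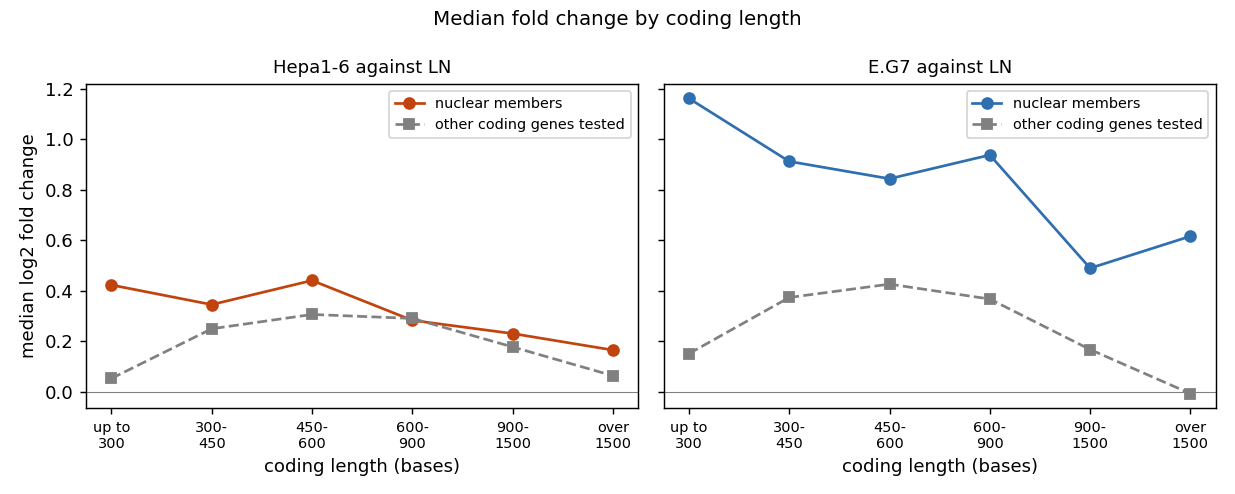
Median log2 fold change by coding length for nuclear OXPHOS genes and for the other genes tested, in Hepa1-6 against LN and in E.G7 against LN. In E.G7 the OXPHOS medians lie above those of the other genes in each of the 6 length ranges, from 1.16 beside 0.15 for the shortest to 0.62 beside -0.01 for the longest. In Hepa1-6 the medians are 0.42 beside 0.05 for the shortest and 0.35 beside 0.25 at 300 to 450 bases. They are 0.44 beside 0.31 at 450 to 600 bases and 0.28 beside 0.29 at 600 to 900 bases.

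Genes around the respiratory chain were read from lists by function, whose counts stand beside 37% higher and 31.1% lower among all genes tested in Hepa1-6 against LN, and 32.7% and 27.2% in E.G7 against LN. Of 16 regulators of mitochondrial DNA expression and biogenesis, 1 was higher and 13 lower in Hepa1-6 than in LN (median log2 difference -0.34), and 4 were higher and 7 lower in E.G7 (median -0.23); under scaling to pan T cell genes the splits were 3 higher and 5 lower, and 7 higher and 3 lower. Tfam, which packages mitochondrial DNA and starts its transcription, had 31.0, 33.9, 36.6 and 31.7 CPM in Hepa1-6, 70.2 and 69.4 in E.G7, and 53.3, 55.5, 53.6 and 62.0 CPM in LN. No group overlapped another, and Tfam fell in Hepa1-6 (-0.75 ± 0.0753, adjusted p = 2.4e-07) and rose in E.G7 (0.32, adjusted p = 0.00631). Polrmt, the mitochondrial RNA polymerase, had 31.4 to 42.3 CPM in Hepa1-6, 41.6 and 36.5 in E.G7, and 52.8 to 57.3 CPM in LN (-0.60 and -0.49, adjusted p = 2.52e-05 and 0.00158). Mterf1a, a mitochondrial transcription termination factor, was lower in both tumours (-1.71 and -1.29). The coactivator Ppargc1a had 1.84, 1.82, 4.25 and 1.24 CPM in Hepa1-6, 4.72 and 3.86 in E.G7, and 0.356, 0, 0.121 and 0.660 CPM in LN (adjusted p = 0.00104 and 0.0003), while its relative Ppargc1b was lower in both (-0.61 and -0.71).

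Genes that feed the chain moved unevenly. Of 14 TCA cycle genes, 8 were higher and 2 lower in Hepa1-6 (5 and 3 under upper-quartile scaling), and 10 were higher and 1 lower in E.G7. Idh3a, of the NAD-dependent isocitrate dehydrogenase, rose in both tumours (0.83 and 1.45), as did Mdh2 (0.72 and 1.14). Idh2, the NADP-dependent enzyme, had 137, 139, 140.4 and 143 CPM in Hepa1-6, 32.9 and 36.9 in E.G7, and 60.7, 62.3, 53.6 and 59.0 CPM in LN, higher in Hepa1-6 (1.25, adjusted p = 4.1e-11) and lower in E.G7 (-0.76, adjusted p = 6.54e-07). Of 13 genes at the entry of pyruvate, 7 were higher and 4 lower in Hepa1-6 and 8 and 3 in E.G7. Ldha, which makes lactate, had 2772 to 2971 CPM in Hepa1-6, 3466 and 3510.4 in E.G7, and 769 to 927 CPM in LN (1.77 and 2.05), and Ldhb fell in both (-1.49 and -0.67). Pdk4, an inhibitor of pyruvate dehydrogenase, had 21.4 to 25.7 CPM in Hepa1-6, 0.223 and 0.258 in E.G7, and at most 0.161 CPM in LN.

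Of 15 genes of the mobile carriers ubiquinone, cytochrome c and electron transfer flavoprotein, 6 were higher and 2 lower in Hepa1-6 (4 and 5 under upper-quartile scaling), and 13 were higher in E.G7. Cycs, somatic cytochrome c, had 98.9, 91.3, 93.3 and 116 CPM in Hepa1-6, 149.96 and 161 in E.G7, and 48.9, 53.0, 38.9 and 46.5 CPM in LN (1.09, adjusted p = 5.76e-08, and 1.73, adjusted p = 2.51e-09). Among 23 tested assembly factors of complexes III, IV and V, 5 were higher and 8 lower in Hepa1-6, the share lower being near that of all genes, and 14 were higher in E.G7; Sco2 had no reads. Lyrm7, the chaperone of the Rieske protein Uqcrfs1, had 1.67, 1.86, 1.32 and 2.81 CPM in Hepa1-6, 21.0 and 18.1 in E.G7, and 7.71, 5.44, 5.10 and 5.59 CPM in LN. Its groups were well apart (-1.64, adjusted p = 5.8e-06, in Hepa1-6 and 1.71, adjusted p = 6.36e-06, in E.G7), although Uqcrfs1 itself was higher in both tumours. Of 11 inner membrane carriers, 7 were higher and 1 lower in each tumour. Slc25a3, which imports phosphate for ATP synthesis, had 786 to 837 CPM in Hepa1-6, 978 and 993 in E.G7, and 402 to 419 CPM in LN (0.97 and 1.26), and Slc25a4, an ADP/ATP carrier, rose by 0.26 and 1.47. Of 7 tested mitophagy genes, 5 were higher in Hepa1-6, and 4 were higher and 1 lower in E.G7; Bnip3, a hypoxia-induced mitophagy receptor, had 185 to 197 CPM in Hepa1-6, 44.3 and 39.7 in E.G7, and 6.67 to 7.81 CPM in LN (4.71 and 2.52).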

How the data were processed

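Bulk RNA-seq libraries were made by BGI Genomics from TRIzol-extracted RNA and sequenced on a BGISEQ-500, per the labels' protocols. The authors deposited raw read counts per gene and a table of FPKM values; the submitters' processing notes name HISAT2, featureCounts from Subread, RSEM, DESeq2 and the mm10 build, without versions here. Neither strand setting nor treatment of multi-mapping reads is given in the sources used here, so the 43 members whose exons overlap another gene, and mitochondrial genes with nuclear copies, are uncertain. The FPKM table holds 12930 genes, 101 of them members, and served as an alternative alone.

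The count analysis used edgeR 4.0.16 under R 4.3.3, with genes passing filterByExpr (20068), TMM scaling (factors 0.912 to 0.922 in Hepa1-6, 1.01 to 1.02 in E.G7, 1.06 to 1.10 in LN), and glmQLFit with glmQLFTest over all 10 libraries with no covariate; the biological coefficient of variation was 13%. Tests are two-sided, and p-values were adjusted over all genes tested by the Benjamini-Hochberg method. Values after ± are SDs for levels and, for log2 differences, SEs taken as the difference divided by the square root of F. TPM were computed from counts and annotated exon lengths and are not TMM-scaled. They order genes within a group only as far as those lengths match the transcripts present. The floor for a group with no reads was 3 counts summed over the group, and ratios of summed reads carry 95% exact counting intervals. Replicate libraries of a group differed beyond sampling noise (chi-square per degree of freedom 7.41 to 18.9). The code was tested on simulated counts. Alternatives were RLE (the size factors of DESeq2), upper-quartile and pan T cell scaling, other filters, DESeq2 1.42.0, limma-voom and log2 FPKM with limma 3.58.1, a fit of the compared groups alone, a replicate block, and leaving out each library.

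Genes were named by rule: all mitochondrial, core complex I and complex II genes, isoform sets, the 2 smallest adjusted p per class, direction and comparison, the 5 largest changes in each direction at 10 CPM or more, and 2 to 4 leaders per pathway list. Of the genes the rule names, 1 is not reported here. Other names (among them Uqcr10, Uqcrb, Uqcrc2, Uqcrh, Cox5b, Cox7c and Atp5h) were added after their values were seen. The members and lists were chosen with earlier results of these data known. Promoters come from RefSeq.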

Additional observations from a re-analysis of the deposited data

Results flagged for a closer look

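Among 120 groups of 4 libraries examined for a library far from the rest of its group, 3 stood out, where chance flags about 1 group in 20. Sdha was lowest in LN replicate 3, at 409 CPM. Ndufs1 was lowest in LN replicate 1, at 113 CPM, and Ndufa3 was lowest in LN replicate 3, at 32.01 CPM.

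The tumours were called in opposite directions from LN for 2 members. Ndufs7 was lower than in LN in Hepa1-6 (-0.14) and higher in E.G7 (0.27), and the tested difference between the tumours was -0.41 (adjusted p = 0.000163, edgeR). Ndufaf4 was lower in Hepa1-6 (-0.22) and higher in E.G7 (0.77), with a tested difference of -0.995 (adjusted p = 6.94e-08). For both genes the Hepa1-6 direction flipped under scaling to pan T cell genes, to 0.10 and 0.02. The Hepa1-6 call of Ndufs7 was not kept under 11 alternatives, among them RLE scaling, DESeq2 and leaving out single libraries.

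Of the 14 ids ending in -ps, which were outside the gene set, 5 were called higher in both tumours than in LN (edgeR). Not tested, being under the filter on low counts, were Atp5k-ps2, Atp5l-ps1, Atp5l-ps2, Atp5c1-ps and Uqcrh-ps1. Uqcrh-ps2 was called lower in Hepa1-6 (-1.76, adjusted p = 0.00859, edgeR), at 0.165 CPM against 0.568 CPM in LN. The share of all genes higher in both tumours was not computed. Ndufa12-ps averaged 18.7 CPM in Hepa1-6, 15.5 CPM in E.G7 and 8.46 CPM in LN. Ndufab1-ps averaged 3.24, 7.10 and 2.20 CPM, Ndufb1-ps 17.6, 22.8 and 10.1 CPM, Atp5pb-ps 6.86, 9.54 and 5.09 CPM, and Cox5b-ps 5.57, 7.06 and 3.29 CPM in Hepa1-6, E.G7 and LN. Ndufb1-ps overlaps Cpsf2.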

How the results depend on the processing

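In Hepa1-6 against LN, the 61 nuclear members called higher became 36 under upper-quartile scaling and 51 to 64 when 1 library was left out. The 7 called lower became 4 under RLE scaling and with DESeq2, 15 under upper-quartile scaling, 1 under scaling to pan T cell genes, and 3 to 9 without 1 library. Of the mitochondrial members, the 2 called higher became 1 under upper-quartile scaling and with a filter of 10 CPM, and 1 to 2 without 1 library; the 8 called lower became 5 under scaling to pan T cell genes. In E.G7 against LN, the 2 nuclear members called lower became 1 under scaling to pan T cell genes and 1 to 2 without 1 library. The count of 0 mitochondrial members called higher became 3 under RLE scaling and with DESeq2, 7 under scaling to pan T cell genes, 2 with no filter, 1 with limma-voom and with the compared groups alone, and 0 to 2 without 1 library; the count of 0 called lower became 1 under upper-quartile scaling and with a filter of 10 CPM. In Hepa1-6 against E.G7, the 3 nuclear members called higher became 1 with a filter of 10 CPM and 1 to 3 without 1 library, and mitochondrial calls in that direction were 0 to 1. The cause was not tested.

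Replicate numbers are shared between groups, and the labels name no pairing. Same-numbered libraries did not deviate together from their group means (correlations -0.049 to 0.0287). Such correlations cannot exclude a pairing, and with 2 E.G7 libraries the deviations there mirror each other by construction. With the number as a block, 58 nuclear members were higher and 4 lower in Hepa1-6, 77 and 2 in E.G7, and 1 higher and 75 lower in Hepa1-6 against E.G7; 1 mitochondrial member was lower in E.G7 against LN. The same libraries unblocked, an alternative chosen after seeing the data, also gave 1 nuclear member higher between the tumours and 1 mitochondrial member lower in E.G7.

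Also chosen after seeing the data, leaving out the assembly factors put the tested nuclear members called lower at 4.76% in Hepa1-6 and 1.19% in E.G7 against LN, and leaving out overlapping genes put those higher in Hepa1-6 than in E.G7 at 1.69%. Signs in Hepa1-6 against LN turned under upper-quartile scaling for mt-Nd1 (-0.0066), Ndufv1 (-0.0084) and Ndufs1 (-0.13), and under scaling to pan T cell genes for mt-Nd2 (0.062), mt-Co1 (0.0600), Sdha (0.13), Ndufs7 (0.10) and Ndufaf4 (0.021).

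The nuclear sum was 11193 CPM in Hepa1-6, 15354 CPM in E.G7 and 7353 CPM in LN under scaling to pan T cell genes, and 9640.2, 14341 and 8823 CPM with plain CPM; in E.G7 it was 14349 CPM under RLE and 13917 CPM under upper-quartile scaling. The mitochondrial sum was 9734 CPM in Hepa1-6 and 14155 CPM in LN with plain CPM, 14515 CPM in E.G7 and 11811 CPM in LN under scaling to pan T cell genes, and 14014 CPM in LN under upper-quartile scaling. Of 177 fold changes of named members, 119 kept their direction and side of the threshold under every alternative that gave a value. With 2 libraries, E.G7 has the least information on spread (where 1 was left out, the remaining one is assumed to vary like the other groups), and isoforms of a few reads rest on counting error.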
